A study of Danio rerio with 12 samples.

Results

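RNA-seq libraries from TALE KD zebrafish embryos at 12hpf were compared with libraries from TALE KD embryos at 6hpf, to ask which developmental programmes still switched on or off in embryos depleted of TALE factors and which stayed near their 6hpf level. These are 6 of the 12 libraries of the series, 3 per stage, chosen by their knockdown label. TALE KD embryos of the Ekwill strain received morpholinos, antisense oligos that block a gene's RNA, against prep1.1 (listed as pknox1.1), pbx2 and pbx4 at the earliest cleavage stages, carried in water with phenol red. Control embryos, with 3 libraries at 12hpf and 3 at 6hpf, were injected with water and phenol red alone, so all 12 libraries come from injected embryos and no control carries a morpholino. Each library was made from polyA RNA of a pool of whole embryos, and fewer cells of a type and less RNA per cell therefore cannot be told apart. Each stage came as its own table, holding both TALE KD and control libraries, so any difference between the handling of the tables cannot be told apart from stage.

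Between 6hpf, the early gastrula, and 12hpf, the start of segmentation, the embryo degrades the transcripts laid down by the mother, ends germ layer induction and begins to pattern the neural plate, the somites and the body axis. TALE factors are homeodomain proteins of the Pbx, Prep (Pknox) and Meis families that bind DNA together with each other and with other transcription factors, Hox proteins above all. In vertebrates, loss of Pbx or Prep disturbs the hindbrain, eye, head and heart.

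The TALE KD libraries held 19783326 to 40924982 estimated counts at 12hpf and 11884805 to 14588017 at 6hpf, and control libraries held 21747584 to 24933116 and 13337632 to 15031243 over the same 14850 genes. Levels are given as CPM, the usual library-scaled counts after TMM scaling, so they compare libraries but not genes. At 12hpf the counts of TALE KD replicate 3 differed from those of replicates 1 and 2 by chi-square values of 17.6 and 23.5 for each degree of freedom. Between replicates 1 and 2 the value was 3.1. The 6hpf replicates, which were shallower, had values of 6.85, 9.32 and 8.6, and such values grow with depth. Whether replicate 3 stood apart or replicates 1 and 2 were unusually alike was not tested. Replicate 3 was the highest 12hpf library for 47.5% of the genes that rose and the lowest for 46.2% of those that fell. In control embryos 12hpf replicate 3 was the highest for 37.1% of the genes that rose and the lowest for 44.7% of those that fell. This tilt was therefore not confined to TALE KD embryos. The study left 1 outlier 12hpf replicate out without naming it. All 12 libraries were kept here, and results that rest on replicate 3 are also given without it.

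The targeted genes were measured at the RNA level, which does not show how much protein a morpholino removed. pknox1.1 had 57.3, 57.4 and 54.8 CPM in TALE KD embryos at 12hpf against 157, 154 and 147 CPM at 6hpf, a fall of 2.76-fold. Control embryos had 47.3, 48.8 and 49.6 CPM at 12hpf against 144, 138 and 122 CPM at 6hpf. pbx4 stayed near its 6hpf level in TALE KD embryos, with 395, 375 and 316 CPM at 12hpf and 386, 334 and 342 CPM at 6hpf (log2 fold-change 0.00, 95% interval -0.20 to 0.21). pbx2 had 260, 257 and 237 CPM at 12hpf and 180, 165 and 180 CPM at 6hpf, and is described with the genes whose stage change differed from control.

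Of 11523 genes tested in TALE KD embryos, 3523 were called higher at 12hpf and 2847 lower (edgeR quasi-likelihood test, Benjamini-Hochberg adjusted p at most 0.01 and at least 1.5-fold). These are 30.6% and 24.7% of the genes tested. A further 2339 genes, 20.3%, were near their 6hpf level, meaning that the 95% interval of the fold-change lay within 1.5-fold in both directions. The remaining 2814 were neither called nor near. The change exceeded 4-fold for 1459 of the genes that rose and 728 of those that fell, and it exceeded 16-fold for 586 and 144. With library totals in place of TMM scaling 4289 genes were called higher and 2117 lower, 67% of calls higher against 55.3%, and the median log2 fold-change of all genes was 0.32 in place of 0.09, so fold-changes below are relative to the TMM scale. Without TALE KD 12hpf replicate 3 the calls numbered 3424 higher and 2815 lower.

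At the extremes, 278 genes were switched on, with at most 3 counts in every 6hpf library, at least 1 CPM in every 12hpf library and a call of higher, and all 278 were also called higher in control embryos. Only 10 genes were switched off by the reverse criterion, a number that depth decides, since it was 52 when all libraries were thinned to the depth of the shallowest and 20 and 21 without TALE KD 12hpf replicates 2 and 3. Depth changed the number switched on little, to 284. Among 40 gene lists, the share of tested members that rose ran from 0% to 100% and the share that fell from 0% to 89.5%, as the plot of lists shows. List counts below are to be read against 30.6% higher, 24.7% lower and 20.3% near over all genes tested. Several lists lie close to these shares.

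**Figure D1:**
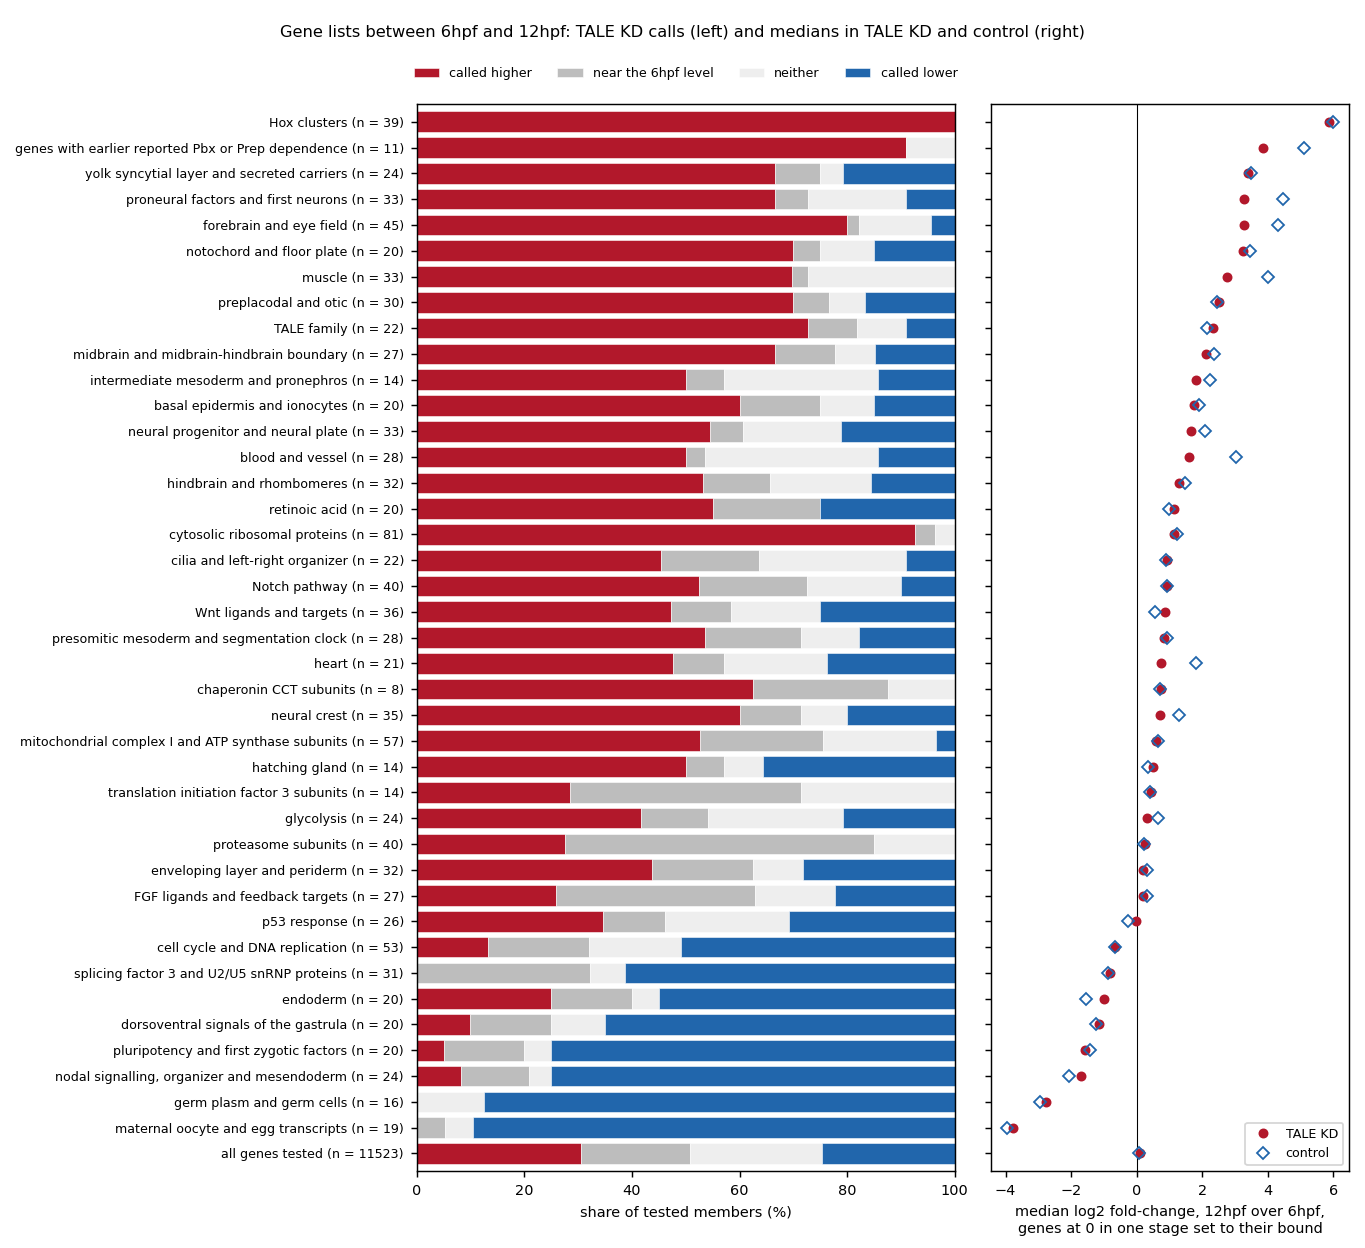
Left, share of tested members (%) of each gene list called higher, near the 6hpf level, neither, or called lower in TALE KD embryos at 12hpf over 6hpf, with all 11523 genes tested in the bottom row. Right, median log2 fold-change in TALE KD (filled circles) and control embryos (open diamonds), with genes at 0 counts in every library of a stage set to their lower bound. Hox genes lie at the top with all 39 tested members higher, and maternal transcripts at the bottom with 17 of 19 lower.

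The Hox clusters give segments along the body axis their identity, and their proteins bind DNA with TALE partners. Among the 40 lists they had the highest share of tested members called higher. All 39 tested Hox genes, of 48 in the tables, rose in TALE KD embryos, against 30.6% of all genes, and 31 of them were switched on. Those 31 could pass the filter of a mean of at least 10 counts only through their 12hpf libraries, so the filter fixed their direction. In each of the 39 the lowest 12hpf library lay above the highest 6hpf library. For the 31 this follows from the criterion for switched on, and the share of all tested genes with such separation was not counted. Mean levels ran from 0.777 to 137 CPM at 12hpf and from 0 to 2.01 CPM at 6hpf. The median log2 fold-change was 8.55 in TALE KD embryos and 9.35 in control embryos, or 5.85 and 5.99 with genes at 0 counts set to their bound. Of 40 Hox genes tested in edgeR for a difference between these stage changes, none passed. The difference was below 0 in 30 of the 40, with a median of -0.6, and the share below 0 over all genes was not counted. At an unadjusted p below 0.05 stood 2 genes, both below 0, or 5% against 8.66% of all genes. However, 17 tested Hox genes had 0 counts in every TALE KD 6hpf library, and 21 had 0 in every control 6hpf library. For genes at 0 in both groups the test cannot call a difference, with a log2 SE of 342 for hoxd10a and 499 for hoxc6b. The lack of calls and the 5% therefore do not show that Hox genes differed less than other genes. At 12hpf the mean was lower in TALE KD than in control embryos for 28 of the 39. The 9 Hox genes not tested stayed at or below 0.816 CPM in every TALE KD library.

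hoxb1b, the earliest anterior Hox gene of the zebrafish hindbrain, had 133, 132 and 146 CPM at 12hpf against 2.97, 1.34 and 1.72 CPM at 6hpf, a log2 fold-change of 6.04 ± 0.18 (SE). Its paralog hoxb1a, which specifies rhombomere 4, had 14.3, 17.9 and 20.9 CPM at 12hpf against 1.41, 1.19 and 0.723 CPM at 6hpf (log2 fold-change 3.94 ± 0.24). At 12hpf control embryos had 140, 136 and 134 CPM of hoxb1b and 30.9, 29.5 and 30.8 CPM of hoxb1a. Trunk genes came on as well. hoxc8a reached 106, 107 and 108 CPM at 12hpf against 0.223, 0.224 and 0.271 CPM at 6hpf, a pooled ratio of 452-fold (95% counting interval 238 to 988). hoxb10a had 57.7, 59.8 and 63.8 CPM at 12hpf and 0 counts in every 6hpf library, at least 253-fold higher. hoxa13b, of the most posterior paralog group, had 2.96, 2.8 and 3.37 CPM at 12hpf and 0 counts at 6hpf. Stages did not overlap in any of these 5 genes.

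Among the anterior Hox genes the smallest rise was that of hoxa2b, which patterns rhombomere 2 and the cranial neural crest. It had 2.24, 2.27 and 3.88 CPM at 12hpf against 1.26, 0.299 and 0.181 CPM at 6hpf in TALE KD embryos, a log2 fold-change of 2.2 ± 0.53 (edgeR adjusted p = 0.00377). The call was lost without TALE KD 6hpf replicate 2 or 3 or 12hpf replicate 3, with edgeR adjusted p of 0.0206, 0.0131 and 0.0107. Control embryos had 8.74, 9.15 and 9.63 CPM at 12hpf against 0.874, 0.357 and 0.0774 CPM at 6hpf, a log2 fold-change of 4.35. The difference of -2.17 did not pass the test, with an edgeR adjusted p of 0.432, or 0.0629 with a replicate block.

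**Figure D2:**
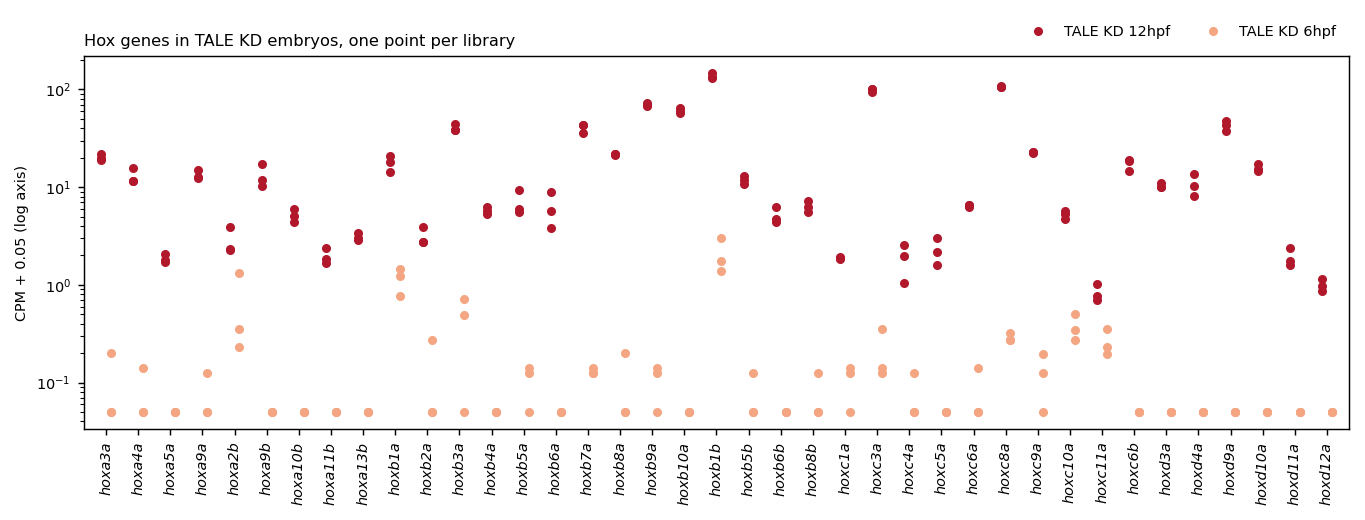
CPM with a small offset on a log axis for the 39 tested Hox genes in TALE KD embryos, with 3 libraries at 12hpf (dark) and 3 at 6hpf (light) per gene, ordered by cluster and paralog group. Every 12hpf point lies above the 6hpf points of the same gene, and hoxb1b is highest at 12hpf with a mean of 137 CPM.

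Among all called genes with at least 5 CPM at the higher stage and no overlap between stages, the 10 with the highest fitted fold-change were crabp2a, he1b, hoxb10a, hoxd9a, mab21l2, smyhc1, dmrt2a, hoxc6b, hoxd10a and he1a. The first 9 had 0 counts in every 6hpf library. crabp2a, a retinoic acid binding protein, had 91.6, 102 and 115 CPM at 12hpf, at least 430-fold higher. he1a and he1b encode hatching enzymes of the hatching gland. he1a had 199, 203 and 298 CPM at 12hpf against 0, 0.0747 and 0.181 CPM at 6hpf, a pooled ratio of 3060-fold (95% counting interval 1050 to 14800). mab21l2, needed for eye growth, had 22.6, 20.7 and 42.7 CPM at 12hpf, and smyhc1, the slow muscle myosin heavy chain, had 15.9, 21.3 and 29.2 CPM. For both genes replicate 3 was highest. Control embryos at 12hpf had 39.7, 39.2 and 53.2 CPM of mab21l2 and 69.4, 67.3 and 80.3 CPM of smyhc1.

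The 10 with the lowest fold-change were sid1, col10a1a, alox5b.3, pnp4a, stap2a, tfec, add3b, nnr, epyc and lmo7b. alox5b.3 had 0.812, 0.879 and 0.732 CPM at 12hpf against 768, 785 and 726 CPM at 6hpf, 957-fold lower. pnp4a, a purine nucleoside phosphorylase, had 1, 0.764 and 0.333 CPM at 12hpf against 170, 166 and 206 CPM at 6hpf, and tfec, a transcription factor of the Mitf family, had 0.143, 0.0926 and 0.488 CPM at 12hpf against 44.2, 56.8 and 46 CPM at 6hpf. sid1 had 0 counts at 12hpf and 9.13, 11.6 and 0.995 CPM at 6hpf, so its 6hpf level rests on 2 of the 3 libraries. Except for sid1, the 6hpf libraries of each of these genes were close to each other and the 12hpf libraries lay far below them.

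Neural programmes came on in the knockdown. Of 45 tested genes of the forebrain and eye field, 36 rose, 2 fell and 1 stayed near its 6hpf level, and 14 were switched on, with a median log2 fold-change of 3.27 in TALE KD embryos and 4.64 in control embryos (3.26 and 4.32 with genes at 0 counts at their bound). As for the Hox genes, the filter fixed the direction of these 14. The same holds for the switched on genes of every list, among them 9 proneural, 7 midbrain and 5 neural plate genes. rx3, which starts eye formation, had 71.1, 74.4 and 79.7 CPM at 12hpf against 0.148, 0.149 and 0 CPM at 6hpf. pax6a, a master regulator of eye and forebrain, had 27.6, 31.7 and 39.2 CPM at 12hpf against 0, 0.448 and 0.904 CPM at 6hpf (log2 fold-change 6.23 ± 0.40). foxg1a, the telencephalic factor, had 7.5, 8.17 and 11.2 CPM at 12hpf against 0.0742, 0.0747 and 0.0904 CPM at 6hpf. In all 3 genes no 6hpf library reached 1 CPM and every 12hpf library was above 5 CPM.

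In the midbrain and midbrain-hindbrain boundary list 18 of 27 tested genes rose and 4 fell, with a median log2 fold-change of 2.25 in TALE KD embryos and 2.83 in control embryos (2.11 and 2.37 with bounds). pax2a, an organizer gene of that boundary, had 66.1, 59.5 and 56.7 CPM at 12hpf against 0.223, 0.373 and 0.452 CPM at 6hpf (log2 fold-change 7.42 ± 0.18). eng2a, its engrailed partner, had 17.3, 15.5 and 18.6 CPM at 12hpf and a single count among the 6hpf libraries. pax5 went the other way, with 0.239, 0.116 and 0.71 CPM at 12hpf against 1.93, 2.24 and 1.99 CPM at 6hpf, a fall of 5.59-fold. In control embryos pax5 had a log2 fold-change of -0.46 and was not called. The pax5 difference between these stage changes was not called in edgeR, with or without a replicate block.

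The neural plate list mixed both directions, with 18 of 33 genes higher, 7 lower and 2 near. sox3, a SoxB factor of neural progenitors, fell, with 121, 124 and 154 CPM at 12hpf against 459, 468 and 427 CPM at 6hpf (log2 fold-change -1.79 ± 0.09). sox1b, of the same SoxB family, rose to 14.2, 14.3 and 20.3 CPM at 12hpf, with a single count at 6hpf. sox2 had 87.2, 79.2 and 71.1 CPM at 12hpf against 110, 105 and 104 CPM at 6hpf, below the 1.5-fold threshold. Of 33 proneural and early neuronal genes 22 rose and 3 fell. neurog1, which commits progenitors to the neuronal fate, had 26.5, 25.9 and 34.1 CPM at 12hpf against 0.594, 0.597 and 0.362 CPM at 6hpf, and elavl3, an RNA-binding protein of the first neurons, had 15.8, 18.4 and 24.4 CPM at 12hpf against 0.445, 0.597 and 0.633 CPM at 6hpf. ascl1b was not called in TALE KD embryos, with 1.43, 1.76 and 3.1 CPM at 12hpf and 0.816, 1.27 and 0.904 CPM at 6hpf. Control embryos had 6.03, 6.32 and 7.54 CPM at 12hpf and 0.715, 1.57 and 0.387 CPM at 6hpf. The ascl1b difference did not pass, with an edgeR adjusted p of 0.351, or 0.0581 with a replicate block.

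The hindbrain, the region best known to need TALE factors, was mixed. Of 32 tested genes 17 rose, 5 fell and 4 stayed near the 6hpf level, with a median log2 fold-change of 1.3 in TALE KD embryos and 1.48 in control embryos. At an unadjusted edgeR p below 0.05, the TALE KD minus control difference in stage change was below 0 in 7 of 33 hindbrain genes and above 0 in 2. These are 27.3%, against 8.66% of all genes. Among proneural genes it was 7 of 34 and among forebrain genes 6 of 45, all below 0. Among neural plate genes it was 3 of 33, all below 0, and among midbrain genes 4 of 28, 2 each way. These shares are a description and no test. gbx2, of the anterior hindbrain, had 14.5, 15.6 and 26 CPM at 12hpf against 0.297, 0.0747 and 0.181 CPM at 6hpf, and control embryos had 34.1, 32.9 and 34.8 CPM at 12hpf. By fold-change, the middle hindbrain segment genes egr2b and mafba rose less than gbx2 in TALE KD embryos. egr2b (krox20), the marker of rhombomeres 3 and 5, had 0.43, 0.856 and 1.37 CPM at 12hpf against 0, 0.0747 and 0.181 CPM at 6hpf in TALE KD embryos, 108 counts against 3, a pooled ratio of 12.5-fold (95% counting interval 4.16 to 61.6, edgeR adjusted p = 0.00299). Its call was lost without TALE KD 6hpf replicate 1 or 2, with edgeR adjusted p of 0.0143 and 0.0163. Control embryos had 53, 53.3 and 52 CPM at 12hpf against 0.159, 0 and 0 CPM at 6hpf. Every TALE KD 12hpf library thus lay far below every control 12hpf library, while both groups were near 0 counts at 6hpf.

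mafba (valentino), which divides rhombomeres 5 and 6, had 6.4, 7.78 and 16.3 CPM at 12hpf against 1.48, 2.24 and 1.45 CPM at 6hpf in TALE KD embryos, a log2 fold-change of 2.53 ± 0.40. Control embryos had 55.6, 58.2 and 55.8 CPM at 12hpf against 1.19, 1 and 1.32 CPM at 6hpf, a log2 fold-change of 5.55 ± 0.12. cyp26b1, a retinoic acid degrading enzyme of the rhombomeres, had 6.21, 7.17 and 8.63 CPM at 12hpf and a single count at 6hpf in TALE KD embryos, against 29.6, 30.7 and 24.9 CPM at 12hpf and 0 counts at 6hpf in control embryos. The difference in stage change did not pass the threshold in edgeR for any of the 3 genes, with adjusted p of 0.31 for egr2b, 0.054 for mafba and 0.618 for cyp26b1, or 0.18, 0.0335 and 0.486 with a replicate block. Without TALE KD 12hpf replicate 3, the highest for mafba, its difference was -3.56 and passed (edgeR adjusted p = 7.84e-05), and DESeq2 called mafba and egr2b with adjusted p of 2.96e-07 and 0.000723. For egr2b and cyp26b1 the 6hpf end of each change rests on at most 3 counts in a group, which leaves 95% intervals of -10.58 to -2.15 and -9.40 to 0.51 on the log2 difference.

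Axial and paraxial mesoderm progressed. In the notochord and floor plate list 14 of 20 tested genes rose and 3 fell, with a median log2 fold-change of 3.23 in TALE KD embryos and 3.47 in control embryos. ta, the notochord and tail bud T-box factor, fell to 141, 146 and 141 CPM at 12hpf against 748, 716 and 733 CPM at 6hpf, 5.24-fold. col2a1a, the collagen of the notochord sheath, rose to 70.1, 82.4 and 105 CPM at 12hpf against 0.742, 0.896 and 1.18 CPM at 6hpf, and shha, the midline signal, to 36.7, 36 and 36.5 CPM against 10.3, 9.33 and 6.78 CPM. Of 28 presomitic mesoderm and clock genes 15 rose, 5 fell and 5 stayed near. tbx6, needed for paraxial mesoderm, had 174, 200 and 205 CPM at 12hpf against 4.01, 2.76 and 4.07 CPM at 6hpf (log2 fold-change 5.71 ± 0.14), while tbx16, which acts earlier, fell to 134, 136 and 121 CPM at 12hpf against 703, 745 and 714 CPM at 6hpf.

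Of 33 tested muscle genes 23 rose and 0 fell, with a median log2 fold-change of 3.15 in TALE KD embryos and 4.42 in control embryos, or 2.76 and 4.00 with bounds. Without TALE KD 12hpf replicate 3, 20 were called higher and 1 lower. myod1, the determination factor, had 15.3, 14.3 and 14.4 CPM at 12hpf against 0.297, 0.224 and 0.181 CPM at 6hpf (log2 fold-change 5.89 ± 0.22). The contractile actin acta1b was not called in TALE KD embryos, with 0.43, 0.81 and 1.53 CPM at 12hpf and 0.445, 0.0747 and 0.723 CPM at 6hpf, while control embryos had 7.12, 6.43 and 8.25 CPM at 12hpf and 0.159, 0.5 and 0.387 CPM at 6hpf. actc1b, another muscle actin, rose to 4.35, 5.39 and 9.8 CPM at 12hpf in TALE KD embryos against 0.965, 0.747 and 0.362 CPM at 6hpf, and control embryos had 23, 21.2 and 26 CPM at 12hpf against 0.715, 0.214 and 0.465 CPM at 6hpf. The edgeR adjusted p of the difference was 0.247 for acta1b and 0.242 for actc1b, and DESeq2 called actc1b with an adjusted p of 0.00802.

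Blood and vessel genes were higher at 12hpf in part of the list. Of 28 tested genes 14 rose and 4 fell, with a median log2 fold-change of 2.49 in TALE KD embryos and 3.12 in control embryos, or 1.60 and 3.04 with genes at 0 counts at their bound. 13 genes were called higher without replicate 3, and 9 after thinning to equal depth. tal1, the first factor of the blood lineage, had 4.58, 6.04 and 19.6 CPM at 12hpf against 1.86, 0.821 and 0.543 CPM at 6hpf, and lmo2, its partner, had 3.77, 5.49 and 16.3 CPM at 12hpf against 0.297, 0.0747 and 0.723 CPM at 6hpf. etv2, the vascular determinant, had 13 to 40.2 CPM at 12hpf against 1.78, 0.971 and 0.904 CPM at 6hpf. In all 3 genes replicate 3 was highest and every 12hpf library still lay above every 6hpf library. The call for tal1 was lost without TALE KD 6hpf replicate 2 (edgeR adjusted p = 0.0106). Control embryos had 32.7, 32 and 37 CPM of tal1 at 12hpf and 1.11, 1.36 and 1.16 CPM at 6hpf.

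Of 21 heart genes 10 rose and 5 fell, with medians of 0.74 in TALE KD embryos and 1.81 in control embryos. These are 47.6% higher against 30.6% of all genes, and 23.8% lower against 24.7%. hand2, which heart and pectoral fin mesoderm need, had 31.6, 33.8 and 44 CPM at 12hpf against 0.148, 0 and 0 CPM at 6hpf. In the intermediate mesoderm list 7 of 14 genes rose and 2 fell. wt1a, a kidney podocyte factor, was neither called nor near its 6hpf level in TALE KD embryos, with 1.86, 1.76 and 2.48 CPM at 12hpf and 2.37, 1.72 and 1.27 CPM at 6hpf. In control embryos it rose to 6.11, 6.55 and 6.74 CPM at 12hpf against 1.11, 1.57 and 1.47 CPM at 6hpf. The log2 difference in stage change was -2.03 ± 0.34 with an edgeR adjusted p of 0.0281, or 0.0144 with a replicate block, short of the threshold of 0.01, while DESeq2 called it with an adjusted p of 0.000204.

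Ectodermal derivatives outside the neural plate also advanced. Of 35 neural crest genes 21 rose, 7 fell and 4 stayed near. pax3a, of the neural plate border, had 29.7, 31.8 and 30.7 CPM at 12hpf against 0.148, 0.299 and 0.362 CPM at 6hpf. sox10, a later crest factor, had 6.3, 8.38 and 20.6 CPM at 12hpf against 2.37, 0.821 and 1.72 CPM at 6hpf, with replicate 3 again highest. tfap2a, snai2 and ets1 were near their 6hpf level. snai2, a zinc finger repressor, had 49.1, 51.8 and 55.2 CPM at 12hpf and 47.1, 55.2 and 54.3 CPM at 6hpf. Of 30 preplacodal and otic genes 21 rose and 5 fell, among them six1b, a sensory placode factor, with 7.88, 7.41 and 11.8 CPM at 12hpf and 0 counts at 6hpf, at least 37.7-fold higher.

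In basal epidermis and ionocytes 12 of 20 genes rose and 3 fell. tp63, the epidermal stem cell factor, had 181, 176 and 143 CPM at 12hpf against 15.4, 12.1 and 20.9 CPM at 6hpf, a log2 fold-change of 3.35 ± 0.18. The enveloping layer, the outer covering already present at 6hpf, split 14 higher, 9 lower and 6 near of 32. Its keratins krt8 and krt18 were near, krt8 with 4370, 4350 and 4200 CPM at 12hpf and 5330, 4840 and 5170 CPM at 6hpf. krt4 rose slightly above the threshold, with 7910, 8030 and 8060 CPM at 12hpf against 5270, 4640 and 4660 CPM at 6hpf, 1.61-fold. In the hatching gland list 7 of 14 rose and 5 fell.

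Of 24 tested genes of the yolk syncytial layer, which feeds the embryo, and of the secreted carriers made there, 16 rose and 5 fell, with medians of 3.38 in TALE KD embryos and 3.5 in control embryos, and 3 were switched on. apobb.1, the lipoprotein of yolk lipid export, had 4200, 3730 and 3690 CPM at 12hpf against 80.8, 81.6 and 101 CPM at 6hpf, 43.3-fold higher. serpina1, a secreted protease inhibitor, had 668, 689 and 526 CPM at 12hpf against 2.89, 3.66 and 3.35 CPM at 6hpf. The 5 that fell were the transcription factors mxtx1, mxtx2 and hnf4a, the transporter slc26a1 and mtp, with hnf4a at a log2 fold-change of -2.76 in TALE KD embryos and -3.28 in control embryos.

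Maternal programmes went down. Of 19 tested oocyte and egg transcripts 17 fell and 0 rose, against 24.7% of all genes called lower, with a median log2 fold-change of -3.76 in TALE KD embryos and -3.96 in control embryos. h1m, the oocyte linker histone, had 4.25, 3.06 and 3.86 CPM at 12hpf against 128, 166 and 126 CPM at 6hpf, 39-fold lower. Of 16 germ plasm and germ cell genes 14 fell and 0 rose, among them ddx4 (vasa), with 14.3, 13.7 and 10.8 CPM at 12hpf against 240, 257 and 223 CPM at 6hpf, 19.1-fold lower. bmb was the 1 maternal gene near its 6hpf level, with 28, 31.1 and 19.1 CPM at 12hpf and 21.6, 27.8 and 21.1 CPM at 6hpf, while in control embryos it fell to 10, 9.61 and 15.3 CPM at 12hpf against 19.5, 23.4 and 23.9 CPM at 6hpf. The bmb difference in stage change did not pass, with an edgeR adjusted p of 0.212, or 0.0993 with a replicate block. With polyA RNA, loss of a transcript and loss of its polyA tail cannot be told apart.

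Pluripotency factors that start zygotic transcription fell too, 15 of 20 lower, 3 near and 1 higher. pou5f3, the zebrafish Oct4 homolog, had 31.8, 29.6 and 29.5 CPM at 12hpf against 2100, 2210 and 1970 CPM at 6hpf, 70.8-fold lower, and nanog had 6.54, 5.67 and 5.48 CPM at 12hpf against 103, 133 and 104 CPM at 6hpf, 19.8-fold lower. The member that rose was klf2a, with 50.9, 45.1 and 31.7 CPM at 12hpf against 24.6, 21.3 and 24.1 CPM at 6hpf, an endothelial and flow-responsive factor later in life. The fall of pou5f3 was 0.55 smaller on the log2 scale in TALE KD than in control embryos, which is below the 1.5-fold threshold, with an edgeR adjusted p of 0.0313, or 0.00925 with a replicate block.

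Genes of germ layer induction mostly fell. Of 24 nodal, organizer and mesendoderm genes 18 fell, 2 rose and 3 stayed near, with a median log2 fold-change of -1.70 in TALE KD embryos and -2.06 in control embryos. ndr1 (squint), a nodal ligand, had 0.191, 0.278 and 0.222 CPM at 12hpf against 4.08, 3.96 and 3.35 CPM at 6hpf. Of 20 dorsoventral genes of the gastrula 13 fell and 2 rose, among the falling ones bmp2b, the ventral ligand, with 44.5, 47.8 and 36.8 CPM at 12hpf against 110, 96.1 and 115 CPM at 6hpf, and chd (chordin), its dorsal antagonist, with 143, 145 and 153 CPM at 12hpf against 476, 434 and 361 CPM at 6hpf. Of 20 endoderm genes 11 fell and 5 rose, with medians of -1.0 in TALE KD embryos and -1.54 in control embryos. At an unadjusted edgeR p below 0.05, the TALE KD minus control difference in stage change was above 0 in 8 nodal list genes and 6 endoderm genes. It was below 0 in 0 of either list. These are 33.3% and 30% of the members tested, against 8.66% of all genes. Lists share members, with 1255 entries for 1097 genes over the 40 lists, so the 2 shares may not be separate observations. The endoderm list also holds 1 gene called in the interaction described below. All lists were chosen with earlier results of these data known, so these shares are a description and no test. sox17, an endoderm determinant, had 9.93, 8.73 and 4.32 CPM at 12hpf against 17, 13.7 and 18.4 CPM at 6hpf in TALE KD embryos, 2.21-fold lower, and control embryos had 3.99, 4.15 and 2.22 CPM at 12hpf against a mean of 14.9 CPM at 6hpf. The sox17 call in TALE KD embryos was lost without 6hpf replicate 1 or 3, with edgeR adjusted p of 0.0137 and 0.0139.

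Among the signalling pathways, 10 of 27 FGF genes stayed near their 6hpf level, 37% against 20.3% of all genes. The receptor fgfr1a had 58.7, 59.7 and 62 CPM at 12hpf and 66.3, 63.6 and 55.1 CPM at 6hpf, a log2 fold-change of -0.07 with a 95% interval of -0.25 to 0.11. il17rd (sef), a feedback inhibitor, had 132, 135 and 127 CPM at 12hpf and 119, 108 and 112 CPM at 6hpf. Another 7 FGF genes rose and 6 fell, including etv4, a transcription factor target, at a log2 fold-change of -1.58. In the Notch pathway 8 of 40 genes were near, 20% against 20.3% of all genes, while 21 rose and 4 fell. The ligand dld had 223, 238 and 216 CPM at 12hpf and 229, 202 and 218 CPM at 6hpf, and the receptor notch1a 188, 195 and 203 CPM at 12hpf and 231, 228 and 187 CPM at 6hpf. Of 36 tested Wnt genes, in which wnt8a and wnt8-2 hold identical values, 17 rose, 9 fell and 4 were near. The share lower was 25%, against 24.7% of all genes.

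In the TALE family itself 16 of 22 tested genes rose, 2 fell and 2 were near, with medians of 2.34 in TALE KD embryos and 2.14 in control embryos. meis1b, a Meis partner of Pbx, had 148, 148 and 172 CPM at 12hpf against 4.23, 6.49 and 4.7 CPM at 6hpf (log2 fold-change 4.89 ± 0.14). meis3, which acts in the hindbrain, had 118, 107 and 118 CPM at 12hpf against 9.05, 6.87 and 7.32 CPM at 6hpf. The 2 that fell were the targeted pknox1.1 and tgif1, and the 2 near their 6hpf level were the targeted pbx4 and irx7.

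Cell cycle and DNA replication genes fell more often than they rose, 27 of 53 lower, 7 higher and 10 near, with medians of -0.67 in TALE KD embryos and -0.66 in control embryos. ccnb1, the cyclin that drives entry into mitosis, fell to 354, 353 and 335 CPM at 12hpf against 827, 907 and 849 CPM at 6hpf, 2.53-fold, while the cyclin gene ccnd2a was among the 7 that rose. mcm5, of the replicative helicase, rose to 310, 322 and 322 CPM at 12hpf against 187, 207 and 193 CPM at 6hpf, 1.59-fold.

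The stage change was close to that of control embryos across genes. In control embryos 3675 of 11364 genes were called higher at 12hpf (32.3%) and 3014 lower (26.5%). Of the 3631 control risers tested in TALE KD, 3199 or 88.1% also rose in TALE KD, 24 were near their 6hpf level and 1 fell, and of 2992 that fell in control, 2621 or 87.6% fell in TALE KD, 40 were near and 0 rose. Counted from TALE KD, 92.4% of risers and 93.1% of fallers were shared. The median log2 fold-change of control risers was 1.56 in TALE KD embryos and 1.70 in control embryos, and that of control fallers -1.15 and -1.25. Across 11265 genes the log2 fold-changes had a Pearson r of 0.969 and a Spearman rho of 0.974, a description over genes, which are not replicates. The contrasts share no library.

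**Figure D3:**
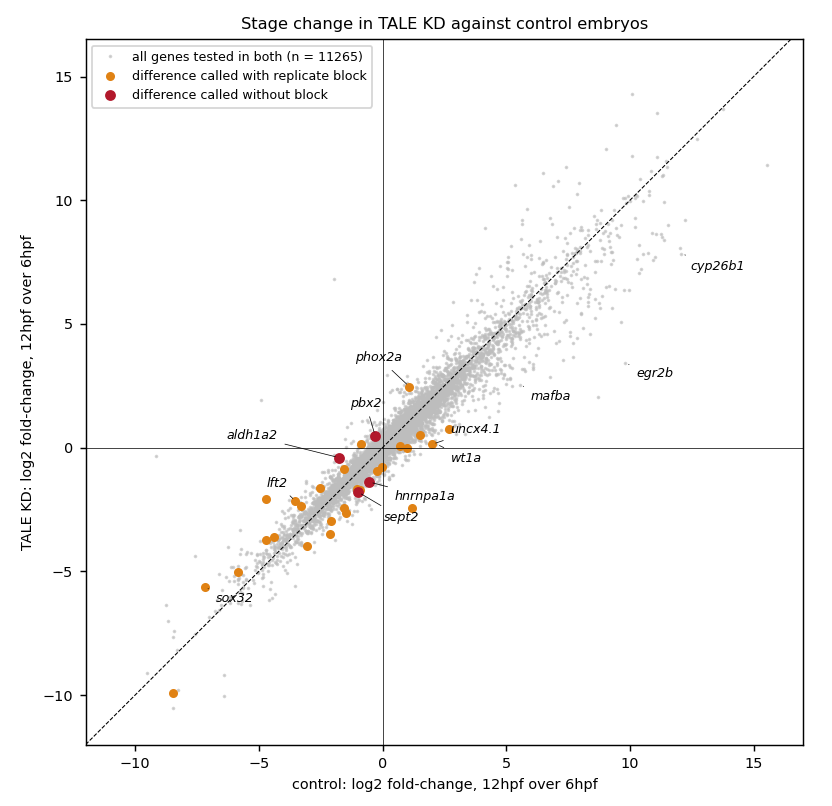
Log2 fold-change at 12hpf over 6hpf in TALE KD embryos (vertical) against control embryos (horizontal), 1 point per gene tested in both (n = 11265), with the diagonal of equal change dashed. Fitted values of genes at 0 counts in a stage are not bounds. Most genes lie along the diagonal, while aldh1a2 and pbx2 lie above it and sept2 and hnrnpa1a below it, as do egr2b and mafba, whose difference did not pass the threshold.

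Whether a gene's stage change differed between TALE KD and control embryos was tested as an interaction over the 12 libraries. Of 11450 genes, 4 were called (0.0349%), aldh1a2 and pbx2 with a more positive and sept2 and hnrnpa1a with a more negative change in TALE KD embryos. Before adjustment 992 genes were below a p of 0.05. The number rests on few libraries. It was 21 without TALE KD 12hpf replicate 3, and 2 without TALE KD 12hpf replicate 2, control 6hpf replicate 2 or control 12hpf replicate 1 or 2. DESeq2 called 47. With the library number within a stage as a block 31 genes were called (0.271%), the 4 among them, 13 with a more positive (0.114%) and 18 with a more negative change (0.157%). With the block the number was 84 without the 12hpf libraries numbered 3 and 1 without those numbered 1 or 2.

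aldh1a2, the enzyme that makes retinoic acid in the trunk mesoderm, stayed near its 6hpf level in TALE KD embryos, with 118, 122 and 106 CPM at 12hpf and 158, 151 and 138 CPM at 6hpf. Control embryos had 46.3, 40 and 47.7 CPM at 12hpf against 151, 164 and 129 CPM at 6hpf. At 6hpf the groups overlapped, and at 12hpf every TALE KD library was above every control library. The log2 stage change was 1.35 ± 0.14 more positive in TALE KD (edgeR adjusted p = 0.00106). Of 20 tested retinoic acid genes, aldh1a2 included, 11 rose, 5 fell and 4 were near in TALE KD embryos. Among the degrading enzymes cyp26a1 fell to 128, 120 and 102 CPM at 12hpf against 217, 166 and 194 CPM at 6hpf, and the receptor raraa rose to 75.8, 71.7 and 69.3 CPM against 25.8, 25.8 and 18.3 CPM.

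pbx2, a morpholino target, had a log2 stage change of 0.49 ± 0.07 in TALE KD embryos, below the 1.5-fold threshold. Control embryos had 84.5, 91.5 and 88.5 CPM at 12hpf and 102, 108 and 107 CPM at 6hpf, so every TALE KD library lay above every control library at both stages. The difference was 0.78 ± 0.09 (edgeR adjusted p = 0.00213). sept2, a septin of the cytoskeleton, had 143, 148 and 165 CPM at 12hpf against 528, 526 and 502 CPM at 6hpf in TALE KD embryos, and 306, 317 and 295 CPM at 12hpf against 596, 583 and 581 CPM at 6hpf in control embryos, a difference of -0.83 ± 0.08 (edgeR adjusted p = 0.00106). hnrnpa1a, an RNA-binding protein of splicing, had 417, 433 and 506 CPM at 12hpf against 1180, 1110 and 1200 CPM at 6hpf in TALE KD embryos, and 944, 972 and 892 CPM at 12hpf against 1270, 1320 and 1340 CPM at 6hpf in control embryos, a difference of -0.88 ± 0.10 (edgeR adjusted p = 0.00213). Leaving out any of the 5 libraries TALE KD 12hpf replicates 1 and 2, control 6hpf replicate 2 and control 12hpf replicates 1 and 2 took the pbx2 difference out of the call, with edgeR adjusted p of 0.0103 to 0.0152, and 4 of these libraries, all but TALE KD 12hpf replicate 1, did so for hnrnpa1a. In control embryos the fall was called for sept2 and was below 1.5-fold for hnrnpa1a.

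Developmental genes among the 31 included sox32 (casanova), the endoderm master factor, which fell to 6.78, 5.32 and 2.31 CPM at 12hpf against 224, 216 and 232 CPM at 6hpf in TALE KD embryos, and to 2.07, 1.9 and 1.01 CPM at 12hpf against 262, 227 and 228 CPM at 6hpf in control embryos, a blocked difference of 1.60. lft2 (lefty2), a nodal inhibitor, had 8.31, 8.31 and 5.52 CPM at 12hpf against 38, 25.8 and 32 CPM at 6hpf in TALE KD embryos and 2.79, 2.95 and 2.47 CPM at 12hpf against 33, 31.9 and 26.5 CPM at 6hpf in control embryos, a blocked difference of 1.36. Both thus fell less in the knockdown in the fit with the block. Over all 12 libraries and without the block neither difference passed, with edgeR adjusted p of 0.205 for sox32 and 0.054 for lft2. The same holds for phox2a and uncx4.1 below, with edgeR adjusted p of 0.11 and 0.102. When TALE KD 12hpf replicate 3 was left out, the sox32 and lft2 differences passed without the block. They were then 1.91 and 1.53, with edgeR adjusted p of 0.00243 and 0.00759. DESeq2 without the block called lft2, phox2a and uncx4.1. phox2a, a homeodomain factor of noradrenergic and cranial motor neurons, rose to 19.2, 17.3 and 12.8 CPM at 12hpf against 3.04, 3.36 and 2.17 CPM at 6hpf in TALE KD embryos, and to 7.39, 8.45 and 6.74 CPM at 12hpf against 3.34, 4.29 and 2.71 CPM at 6hpf in control embryos, a blocked difference of 1.38. uncx4.1, which marks the posterior part of somites, was neither called nor near its 6hpf level in TALE KD embryos (log2 fold-change 0.14, or -0.16 without 12hpf replicate 3), with 3.1, 4.26 and 6.28 CPM at 12hpf and 4.97, 3.43 and 3.89 CPM at 6hpf, and rose to 9.01, 10.2 and 12.6 CPM at 12hpf against 3.65, 2 and 2.01 CPM at 6hpf in control embryos, a blocked difference of -1.92.

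**Figure D4:**
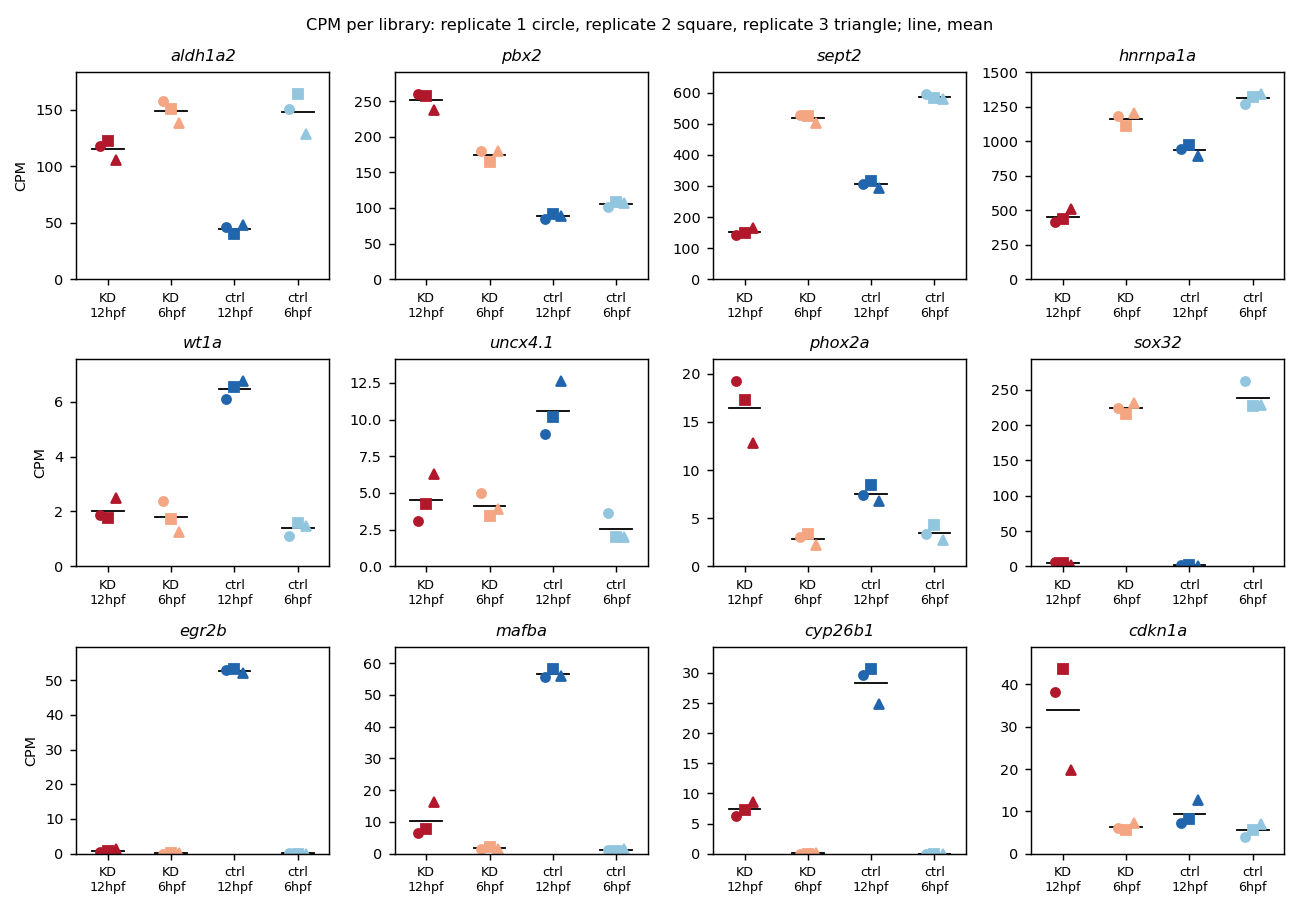
CPM in each library for 12 genes, TALE KD at 12hpf and 6hpf on the left and control (ctrl) at 12hpf and 6hpf on the right of each panel, with symbols for the replicate number and lines for group means. Vertical axes start at 0. aldh1a2 has a mean of 115 CPM at 12hpf in TALE KD embryos against 44.6 CPM in control embryos, and the 12hpf and 6hpf libraries of wt1a and uncx4.1 overlap in TALE KD embryos.

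Of 975 list genes tested in both stage contrasts, 529 rose in control embryos, and 489 of these rose in TALE KD embryos and 40 were not called. Another 216 fell in control embryos, of which 195 fell in TALE KD embryos and 21 were not called. A call in control and none in TALE KD is no test of a difference, and of these 61 genes only aldh1a2 passed the interaction test. Among 11 genes that earlier studies had found to depend on Pbx or Prep, 10 rose in TALE KD embryos and 11 in control embryos, with a median log2 fold-change of 3.94 in TALE KD embryos and 5.55 in control embryos (3.85 and 5.10 with bounds). The log2 difference was below 0 in 10 of the 11, with a median of -1.08, and the share below 0 over all genes was not counted. In edgeR 0 passed the interaction test, while 4 had an unadjusted p under 0.05 (36.4% against 8.66% of all genes). The study listed these genes for their response in the same libraries, so their direction is not independent evidence.

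The p53 response list, of genes that p53 activates in cell cycle arrest and death, changed in both directions. Of 26 genes, 9 rose in TALE KD embryos and 4 in control embryos, and 8 and 9 fell. In TALE KD embryos these are 34.6% higher and 30.8% lower, near the 30.6% and 24.7% of all genes tested. cdkn1a (p21), the arrest gene, had 38.1, 43.7 and 19.7 CPM at 12hpf against 6.16, 5.6 and 7.23 CPM at 6hpf in TALE KD embryos, and 7.24, 8.25 and 12.7 CPM at 12hpf against 3.89, 5.64 and 6.97 CPM at 6hpf in control embryos. bbc3 (puma), a cell death gene, had 14.9, 20.2 and 8.87 CPM at 12hpf against 2.08, 3.14 and 3.89 CPM at 6hpf in TALE KD embryos, and 2.34, 3.53 and 4.44 CPM at 12hpf against 2.06, 2.93 and 3.18 CPM at 6hpf in control embryos. Without both 12hpf libraries numbered 3 the cdkn1a difference passed (edgeR adjusted p = 0.00344). In both genes replicate 3 was the lowest of the TALE KD 12hpf libraries and every TALE KD 12hpf library lay above every control 12hpf library.

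None of the 26 was called in the interaction by edgeR, with adjusted p of 0.217 for cdkn1a and 0.174 for bbc3, while 13 of 26 had an unadjusted p under 0.05 (50%) against 8.66% of all genes tested. In 12 of the 13 the change was more positive in TALE KD, and the exception was plk2b. Over the other lists the share with an unadjusted p under 0.05 ran from 0% to 36.4%, with 35% for pluripotency factors and 33.3% for nodal genes. The lists were chosen with earlier results of these data known, so these shares are a description and no test. The summed level of the 26 genes was 2750 to 3200 CPM at 12hpf and 4300 to 4820 CPM at 6hpf in TALE KD embryos, against 2140 to 2590 CPM at 12hpf and 4630 to 5300 CPM at 6hpf in control embryos. A sum weights genes by their level. The genes cdkn1a, bbc3, phlda3 and foxo3b, which rose in TALE KD embryos, make up little of it, at most 43.7 CPM each in any TALE KD library. The part of the p53 response in the differences of other genes was not tested.

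**Figure D5:**
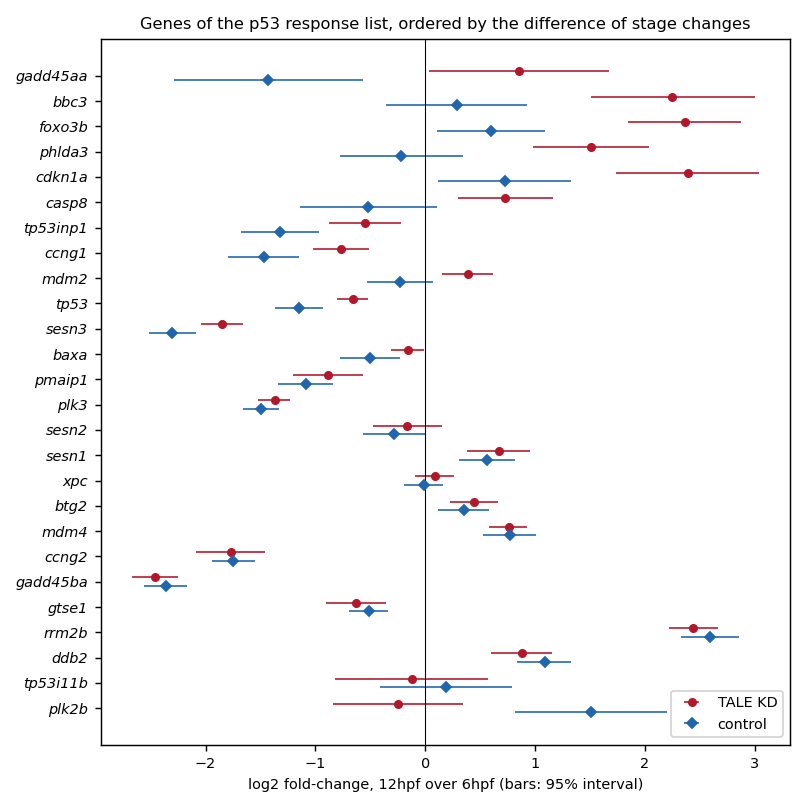
Log2 fold-change at 12hpf over 6hpf with 95% intervals for the 26 genes of the p53 response list in TALE KD (circles, upper of each pair) and control embryos (diamonds), ordered by the difference. cdkn1a, bbc3, phlda3 and foxo3b rose in TALE KD embryos and were not called in control embryos, and plk2b rose in control embryos and was not called in TALE KD embryos.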

How the data were processed

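Levels were RSEM (version 1.2.28) expected counts per gene that the authors made against the danRer10 transcriptome from stranded polyA single-end reads and deposited as 1 table per stage, with replicates kept apart. The deposited tables are titled TPM, but their library totals differ and between 75.4% and 80.0% of each library's values are whole. They were therefore taken to be RSEM expected counts, not TPM. The authors tested them with DESeq2, and no column of their comparisons was used. Here 14850 genes shared by the tables were joined on symbol and expected counts were rounded to whole numbers. edgeR 4.0.16 (R 4.3.3) was run with TMM scaling, a mean of at least 10 counts, quasi-likelihood tests and Benjamini-Hochberg adjustment over all genes tested, separately for each stage change and over 12 libraries for the interaction. DESeq2 1.42.0 and limma 3.58.1 were alternatives. The steps were tested on simulated data. Bounds use a floor of 3 counts per library, 0.239 CPM at 6hpf and 0.0931 CPM at 12hpf in TALE KD embryos, and intervals on pooled ratios cover counting error only.

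Named genes were the 10 highest and 10 lowest fold-changes among called genes without overlap between stages and with at least 5 CPM, members of the lists, and genes called in the interaction. The members and lists were chosen with earlier results of these data known. The replicates are described as biological, and p-values measure the spread between these pools. Same-numbered libraries did not deviate together between stages (r -0.06, 0.02 and -0.05 in TALE KD embryos), but did between TALE KD and control embryos within a stage (0.44, 0.33 and 0.48 at 6hpf, 0.34, 0.37 and 0.58 at 12hpf). At 12hpf the cross pairs of numbers 1 and 2 were about as high (0.3 and 0.32), so there the values set number 3 apart more than they pair 1 with 1 and 2 with 2. The pairing was found in the data and not stated in the labels, and the interaction was also fitted with that number as a block. Promoter sequences were not used here.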

Additional observations from a re-analysis of the deposited data

Results flagged for a closer look

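The log2 stage change differed between TALE KD and control embryos for 31 genes in edgeR with the replicate block, by a test of the difference itself. Values are from the fit with the block, except for aldh1a2, pbx2, sept2 and hnrnpa1a, which were called without it and are given from the fit without it. It was more positive in TALE KD embryos for 13 genes. The differences were 2.5 for chrna2a, 1.6 for sox32, 1.38 for phox2a, 1.36 for lft2, 1.35 for aldh1a2, 0.98 for bcl2l13, 0.96 for nr0b2a, 0.91 for si:dkey-85k7.7, 0.89 for a gene with a clone name, 0.8 for vrtn, 0.78 for pbx2, 0.78 for zgc:112994 and 0.68 for bckdk.

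It was more negative in TALE KD embryos for 18 genes. The differences were -3.66 for zgc:194210, -1.92 for lrrc17, -1.92 for uncx4.1, -1.39 for alox5b.3, -1.35 for scg3, -1.17 for snrnp27, -1.01 for alad, -1.0 for col5a2a, -0.95 for aqp3a, -0.93 for fabp3, -0.88 for hnrnpa1a, -0.87 for ppp1r14ab, -0.85 for a gene with a clone name, -0.83 for sept2 (-0.84 with the block), -0.81 for LOC795545, -0.73 for rtn4b, -0.66 for ssr2 and -0.65 for anapc10. zgc:194210 was the 1 gene called higher in control embryos and lower in TALE KD embryos. Over all 12 libraries only aldh1a2, pbx2, sept2 and hnrnpa1a were also called in edgeR without the block.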

How the results depend on the processing

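Under the alternatives the number of genes called in TALE KD embryos ran over 3062 to 4289 higher and 2117 to 2955 lower. A block that paired same-numbered 6hpf and 12hpf libraries gave 3439 higher and 2783 lower, with 2250 near the 6hpf level. Those pairs did not deviate together, and this block differs from that of the interaction, which lies within a stage. Allowing a 2-fold interval, 4877 genes were near the 6hpf level. Genes switched off numbered 52 at equal depth and 11 to 21 with a replicate left out. Genes called in the interaction numbered 47 with DESeq2, 31 with the replicate block, 2 to 21 with a replicate left out and 25 without both 12hpf libraries numbered 3. With the block they numbered 79 with DESeq2 and 1 to 84 with a same-numbered pair left out. Of 1200 list counts under alternatives 36 moved by over 1.5 times. No called change of a named gene turned its direction. Of those not called, uncx4.1 had a log2 fold-change of -0.16 without TALE KD 12hpf replicate 3, and with library totals tfap2a, snai2, krt18, fgfr1a, notch1a and alad had values above 0 (0.13, 0.2, 0.02, 0.17, 0.06 and 0.21). limma-voom also lost the calls of tal1, lmo2 and sox10, and library totals those of tgif1 and cyp26a1. The causes were not tested. Depth limits genes near 0 counts at 6hpf, whose libraries were shallower.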

Other observations

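Among housekeeping groups, the genes of cytosolic ribosomal proteins were the most often higher in TALE KD embryos at 12hpf. Of 81 cytosolic ribosomal protein genes 75 rose, 0 fell and 3 stayed near the 6hpf level, with a median log2 fold-change of 1.14 in TALE KD embryos and 1.23 in control embryos. Of 31 splicing factor 3 and U2/U5 snRNP genes 19 fell, 0 rose and 10 stayed near, with medians of -0.81 in TALE KD embryos and -0.89 in control embryos. Of 40 proteasome genes chosen by symbol 23 stayed near, 57.5% against 20.3% of all genes, and 11 rose. Of 57 genes of mitochondrial complex I and ATP synthase 30 rose, 2 fell and 13 stayed near. Of 24 glycolysis genes 10 rose and 5 fell, with medians of 0.30 in TALE KD embryos and 0.66 in control embryos. With library totals in place of TMM scaling all 8 chaperonin CCT genes were called higher in place of 5, and 10 of 14 translation initiation factor 3 genes in place of 4. Of 22 genes of cilia and the left-right organizer 10 rose, 2 fell and 4 stayed near, with medians of 0.92 in TALE KD embryos and 0.89 in control embryos.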
